A study of Rattus norvegicus with 115 samples.

Results

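Leukocyte libraries from NMU-induced mammary tumours of rats that received no drug were split by their level of Csf1r, the gene of the colony-stimulating factor 1 receptor that macrophages carry and depend on. Of 107 named count columns, 47 came from rats without drug, and 21 of these, from 15 rats, were leukocyte columns, chosen by a level of at least 300 CPM (counts of a gene per 1000000 counts of its column) of the pan-leukocyte gene Ptprc. The classes were selected on the Csf1r level of the same columns. Csf1r stood at 150 CPM or more in 11 columns of 7 rats, called macrophage-rich, and lower in 10 columns of 8 rats, called macrophage-poor. No rat gave columns of both classes. Csf1r ran between 153 and 937 CPM (median 409) over the macrophage-rich columns and between 16.7 and 126 CPM (median 73.1) over the macrophage-poor ones. The columns nearest the threshold were those of rat C9 at 153 and rat P13 at 170.1 CPM inside it, and of rats P39 at 126 and C7 at 95 CPM outside it. Ptprc lay between 486 and 1255 CPM in the macrophage-rich class and between 599.9 and 1667 CPM in the macrophage-poor class. Both genes made the groups, so their levels are a description and Csf1r is left out of what follows.

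The study sequenced sorted fractions of mammary tumours of virgin Sprague Dawley rats, each given 1 to 3 intraperitoneal injections of 50 mg/kg of the carcinogen N-nitroso-N-methylurea (NMU) between 35 and 53 days of age. Libraries without drug came from 2 cohorts. Rats with a C number belonged to the Characterization cohort and had no treatment, and rats with a P number belonged to the Immunotherapy cohort and were given vehicle once tumours could be felt. The macrophage-rich class held C2, C9, P5, P6, P8, P13 and P14, and the macrophage-poor class held C3, C7, C10, C11, C17, P4, P7 and P39. Column names give the rat and the tumour but no sorted fraction, and only 4 of the 21 columns could be tied to a single sample labelled CD45. The leukocyte label therefore rests on Ptprc in the remaining columns.

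Macrophages are phagocytes that clear dying cells and debris with scavenger and Fc receptors, digest them in lysosomes, make the C1q subunits of complement, and present peptides on MHC class II. Tumours hold macrophages that derive from blood monocytes and from resident cells, and their number relative to T cells differs widely between tumours. In RNA of a bulk fraction, fewer cells of a type and less RNA of that type per cell cannot be told apart, and a larger share of one cell type lowers the share of every other.

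Libraries held between 6674181 and 18260492 counts over 17455 genes, and columns of 1 rat were summed. Levels of genes and lists per rat below are in CPM scaled with edgeR's TMM normalization factors. In leukocytes these ran from 0.613 in C2 to 1.26 in P14. The low factor of C2 makes its levels higher than counts per total would. Libraries of C2 and C3 stood apart, with median correlations of 0.737 and 0.776 to the other rats against 0.831 to 0.889 for the remaining 13. Counts of called genes are therefore also given without them, while levels and fold changes of genes and lists include them unless stated. Leukocyte columns of C rats were all in batch 1 of the sample table and those of P rats in batches 2 and 3, so for leukocytes cohort and that split cannot be told apart. One non-leukocyte column of C9 was in batch 3. Cohort was a term of every fit of gene counts without drug below unless stated, and treatment was the term in drug-treated rats. With all leukocyte columns pooled by batch, drug-treated ones included, 121 genes of the table were found almost only in batch 3, 12 of them among the genes tested. Their pooled levels in batches 1 and 2 were under 2% of that in batch 3. Without drug, batch 3 held 5 macrophage-rich rats and 1 macrophage-poor rat. P-values measure the spread between these rats.

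Promoter windows are shown for 4 genes that lay higher in macrophage-rich rats and whose 250 bases before the annotated start hold the letters GAGGAAGT or, on the other strand, ACTTCCTC, a core that PU.1, the protein of the myeloid gene Spi1, is known to bind. Sequences are from RefSeq on build GRCr8, written 5′ to 3′ on the gene's strand with the match in capitals. The genes are Csf2ra (chr14:118118-118367, minus strand), Ctss (chr2:185775146-185775395, plus strand), Fcgr3a (chr13:85782386-85782635, plus strand) and Rab32 (chr1:6781259-6781508, minus strand).
Csf2ra: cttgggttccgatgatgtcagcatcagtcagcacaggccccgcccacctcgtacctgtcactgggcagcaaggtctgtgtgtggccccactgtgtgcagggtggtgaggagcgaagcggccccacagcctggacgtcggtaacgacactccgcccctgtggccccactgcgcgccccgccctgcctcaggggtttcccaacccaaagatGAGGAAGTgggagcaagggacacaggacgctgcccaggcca
Ctss: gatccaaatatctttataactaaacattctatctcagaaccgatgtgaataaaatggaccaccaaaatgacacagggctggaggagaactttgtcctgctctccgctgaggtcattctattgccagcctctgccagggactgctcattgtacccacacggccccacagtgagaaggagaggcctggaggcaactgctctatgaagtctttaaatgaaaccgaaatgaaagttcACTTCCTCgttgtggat
Fcgr3a: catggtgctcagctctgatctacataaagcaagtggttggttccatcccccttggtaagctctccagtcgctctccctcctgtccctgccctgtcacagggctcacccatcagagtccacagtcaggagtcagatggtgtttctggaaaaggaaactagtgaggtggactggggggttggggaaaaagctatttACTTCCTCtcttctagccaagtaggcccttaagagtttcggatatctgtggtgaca
Rab32: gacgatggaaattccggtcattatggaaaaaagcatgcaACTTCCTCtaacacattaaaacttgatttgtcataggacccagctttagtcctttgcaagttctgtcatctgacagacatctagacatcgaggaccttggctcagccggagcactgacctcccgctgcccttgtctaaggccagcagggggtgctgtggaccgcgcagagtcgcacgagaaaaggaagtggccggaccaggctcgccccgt
The match starts 41 bases before the start of Csf2ra, 17 before that of Ctss, 56 before that of Fcgr3a and 211 before that of Rab32. A window was at hand for 35 of the 61 genes of the macrophage identity, complement, scavenger and lysosome lists, and 3 of these 35 (8.57%) held the letters, against 683 of all 33469 windows (2.04%). Among the T cell genes 1 of 12 with a window (8.33%) held them as well. Genes of the lists were counted once, with a match in any of their windows, while all windows were counted singly. The shares of the lists and of all windows are therefore unlike measures. A match is a run of letters and not a measured site.

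No gene passed the test between the classes. Over 10690 genes the smallest adjusted p of edgeR's quasi-likelihood test with Benjamini-Hochberg adjustment was 0.108, and 0 genes (0% higher and 0% lower) were called at 0.05. At an unadjusted p under 0.05, 737 genes (6.89%) lay higher and 764 (7.15%) lower in macrophage-rich rats, and the median log2 fold change of all genes was -0.04. DESeq2 on the same sums called 241 genes higher (2.25%) and 160 lower (1.5%), and limma voom called 0. Without macrophage-poor rat P4, edgeR called 78 genes higher and 36 lower, and without P39 it called 2 higher. Without C2 and C3 edgeR called 0 and DESeq2 called 82 higher and 71 lower. There 582 genes lay higher and 787 lower at an unadjusted edgeR p under 0.05, and the smallest edgeR adjusted p was 0.284. Without C2 alone these counts were 438 and 499, and the smallest edgeR adjusted p was 0.417. Differences in macrophage genes below restate in part the cut on Csf1r, so their values are a description of what the cut separates.

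The 10 genes with the smallest p all had an adjusted p of 0.108, and 9 of them lay higher in macrophage-rich rats. Ctsh, a lysosomal cathepsin, was at 321 to 1635 CPM (median 594) in macrophage-rich rats and at 119 to 345 CPM (median 222) in macrophage-poor rats, a log2 fold change of 1.83 ± 0.34 (SE). Only the lowest macrophage-rich rat, P13, lay within the macrophage-poor range. Tbxas1, thromboxane synthase, was at 43.6 to 279 CPM (median 120.2) against 11.3 to 50.5 CPM (median 26.3), a log2 fold change of 2.13 ± 0.43. Fcgr2a, an Fc gamma receptor, differed by 2.14 ± 0.43 on that scale, Tifa, an adaptor of TRAF6, by 2.41 ± 0.46, and Tifab by 1.66 ± 0.32. Every macrophage-rich rat exceeded every macrophage-poor rat for 17 of all genes tested (0.159%), and 4 of the 10 were among these. They were Qpct, glutaminyl cyclase, at 20.2 to 64.4 CPM against 7.32 to 17.5 CPM, Cd276, the B7-H3 surface protein, at 13.4 to 89.7 CPM against 2.82 to 11.8 CPM, Naprt, an enzyme of NAD synthesis, at 23.2 to 77 CPM against 5.58 to 21.7 CPM, and Rab32, a small GTPase of lysosome-related organelles, at 61.7 to 143 CPM against 28.5 to 55.4 CPM. Prnp, the prion protein gene, was the one of the 10 that lay lower, at 98.4 to 291 CPM (median 203) in macrophage-rich rats and at 239 to 1251 CPM (median 816) in macrophage-poor rats, a log2 fold change of -1.88 ± 0.38. Every macrophage-rich rat lay below every macrophage-poor rat for 10 genes (0.0935%), among them Idi1, an enzyme of isoprenoid synthesis, at 29.5 to 74.9 CPM against 90.03 to 269 CPM (log2 fold change -1.29 ± 0.30).

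**Figure D1:**
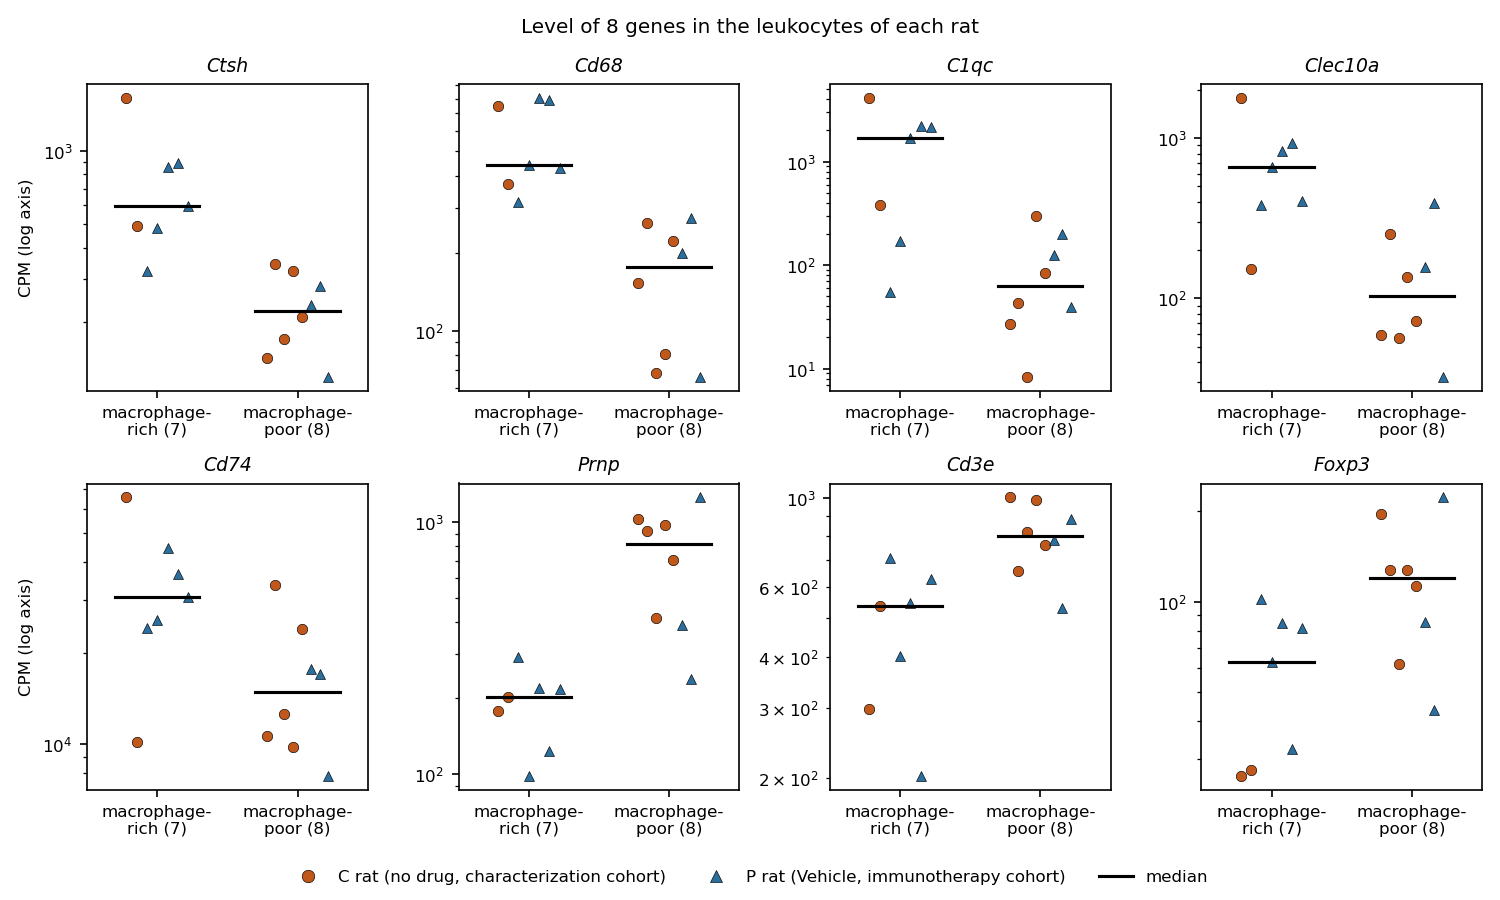
Level of 8 genes, in CPM on log axes, in the summed leukocytes of each rat (7 macrophage-rich on the left, 8 macrophage-poor on the right; circles C rats, triangles P rats, bars medians). The classes do not overlap for Cd68 and overlap for the other 7 genes; C1qc spans 55.2 to 4068 CPM within the macrophage-rich class.

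Genes listed for macrophage identity lay higher in the macrophage-rich rats as a group. The list also holds Csf1 and Il34, which encode ligands of the Csf1r receptor, and Il34 was at 10.2 CPM or less in every rat. Of 15 macrophage identity genes tested, 13 had a fold change above 0, against 47.4% of all genes tested. At an unadjusted p under 0.05, 10 lay higher, against 6.89% of all genes. Their median log2 fold change was 1.57, and DESeq2 called 8, against 2.25% of all genes. Cd68, a lysosomal glycoprotein of macrophages, was at 317 to 801 CPM (median 443) in macrophage-rich rats and at 65.9 to 273 CPM (median 177) in macrophage-poor rats, a log2 fold change of 1.72 ± 0.38 with an edgeR adjusted p of 0.108. Csf2ra, the alpha chain of the GM-CSF receptor, was at 316 to 999 CPM (median 504) against 88.1 to 287 CPM (median 207), and neither gene's classes overlapped. Spi1, which encodes PU.1, was at 233 to 769.9 CPM against 63.6 to 255 CPM, with overlap between the lowest and highest rats of the classes. Lyz2, lysozyme, was at 2484 to 15907 CPM (median 5022) against 341 to 3736 CPM (median 1915). Tyrobp, the DAP12 adaptor, was at 520.3 to 4803 CPM against 198 to 1164 CPM. Cd68, Csf2ra and Spi1 were picked after their values were seen. The macrophage-poor libraries were thus not free of these transcripts: the summed level of the list was 1298 to 7627 CPM there and 4729 to 29198 CPM in macrophage-rich rats.

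C1q transcripts, which tissue macrophages make, lay higher as well and spread widely within the macrophage-rich class. C1qc had a log2 fold change of 3.91 ± 0.88, C1qb of 3.58 ± 0.85 and C1qa of 3.36 ± 0.81 (edgeR adjusted p 0.108, 0.122 and 0.122). C1qc was at 4068 CPM in C2, 379 in C9, 1690.4 in P5, 2196 in P6, 2179 in P8, 55.2 in P13 and 171.6 in P14, against 8.29 to 299 CPM (median 63.3) in macrophage-poor rats. Rats C2, P5, P6 and P8 lay above every macrophage-poor rat by a wide margin, whereas P13 and P14, which also passed the Csf1r threshold, lay inside the macrophage-poor range. Of the 12 complement genes tested, 11 had a fold change above 0, against 47.4% of all genes. At an unadjusted p under 0.05, 10 lay higher, against 6.89% of all genes. DESeq2 called 9, against 2.25% of all genes, and the complement genes had a median of 2.11. Summed, they were at 1105 to 15266 CPM in macrophage-rich rats and at 192 to 1681 CPM in macrophage-poor rats.

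Scavenger and phagocytic receptors had the highest median of the lists, 2.16 over 14 genes, with all 14 fold changes above 0. Of these, 13 had an unadjusted p under 0.05 and DESeq2 called 11. The shares over all genes were 47.4% above 0, 6.89% higher at an unadjusted p under 0.05 and 2.25% called higher by DESeq2. Clec10a, a galactose-binding lectin, was at 151 to 1766 CPM (median 659) in macrophage-rich rats and at 32.3 to 395 CPM (median 103.8) in macrophage-poor rats, a log2 fold change of 2.32 ± 0.57. Mrc1, the mannose receptor, was at 6.96 to 325 CPM (median 139) against 3.16 to 85.8 CPM (median 9.70), and C9, at the low end, lay inside the macrophage-poor range. Cd163, the haemoglobin scavenger receptor, was at 8.04 to 83.7 CPM against 0 to 14.4 CPM. The inhibitory Fc receptor Fcgr2b differed by 1.72 ± 0.40 on the log2 scale and the activating receptor Fcgr3a by 3.22 ± 0.68. Fcgr2a, Fcgr2b and Fcgr3a have near-identical paralogs, and their separate values are uncertain because the counting of shared reads is not given in the sources used here.

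Lysosomal and lipid-handling genes followed, with 18 of 20 fold changes above 0, 11 at an unadjusted p under 0.05, 8 called by DESeq2 and a median of 1.19. Over all genes the shares were 47.4%, 6.89% and 2.25%. Apoe, the lipid carrier apolipoprotein E, was at 219.6 to 5589.8 CPM (median 2738) in macrophage-rich rats and at 29.5 to 1245 CPM (median 276) in macrophage-poor rats. Apoe again divided the macrophage-rich rats: C2, P5, P6 and P8 were at 2738 CPM or more, and C9, P13 and P14 at 429.8 CPM or less. Trem2, a lipid-sensing receptor that signals through DAP12, was at 4.05 to 249 CPM (median 49.5) against 0.342 to 28.2 CPM (median 4.99). Ctss, the cathepsin that cleaves the class II invariant chain, was at 279 to 1375 CPM against 147 to 416 CPM. Ctsb, cathepsin B, was at 675 to 3634 CPM against 624 to 2707 CPM, a log2 fold change of 0.84 ± 0.41. Cfd, the complement protease adipsin of the adipocyte list, was at 16.4 to 769 CPM (median 246) against 2.65 to 84.8 CPM (median 18.5), a log2 fold change of 3.28 ± 0.83.

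**Figure D2:**
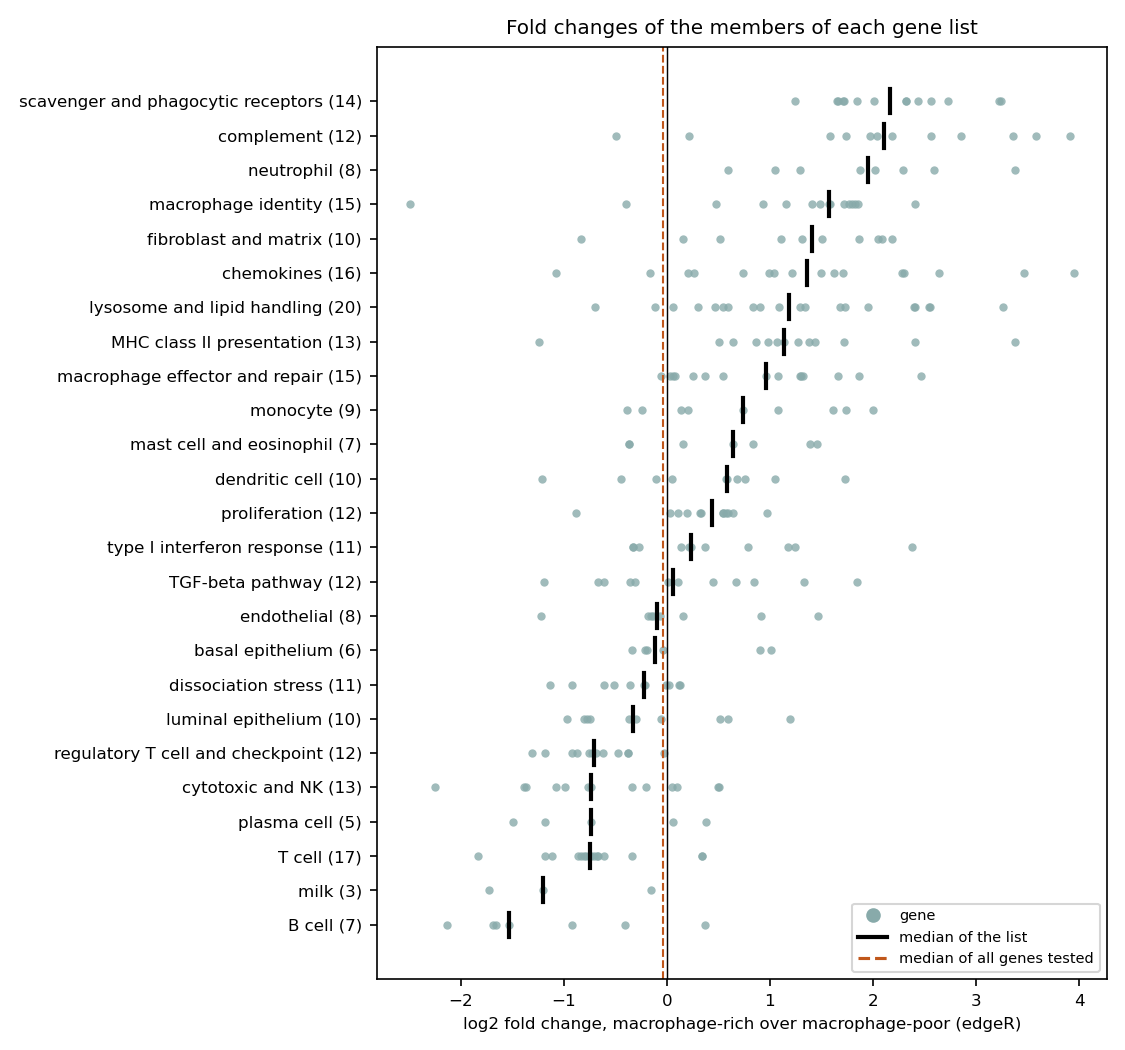
Log2 fold change of each tested gene (points), macrophage-rich over macrophage-poor by edgeR with cohort as covariate, in 25 gene lists ordered by their median (black bars; number of genes in brackets). The dashed line is the median of all genes tested, -0.04; the scavenger receptor list has the highest median, 2.16, and the B cell list the lowest, -1.54.

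Effector genes were mixed. Of 15 tested, 14 had a fold change above 0, against 47.4% of all genes, and 5 lay higher at an unadjusted p under 0.05, against 6.89%. Their median was 0.96, and within batches 2 and 3 that median was -0.12. Igf1, insulin-like growth factor 1, was at 33.8 to 240.2 CPM (median 127) in macrophage-rich rats and at 2.14 to 95.6 CPM (median 11) in macrophage-poor rats. Il1b, interleukin 1 beta, was at 103.7 to 4896 CPM (median 445) against 207 to 1463 CPM (median 248), and C2 and C9 held its highest values at 4896 and 4116 CPM. Spp1, osteopontin, was at 41.3 to 445 CPM against 7.78 to 267 CPM, a log2 fold change of 0.25 ± 0.62. Monocyte genes had a median of 0.74 over 9 genes, 3 of them higher at an unadjusted p under 0.05, against 6.89% of all genes.

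Chemokine genes had a median of 1.36 over 16 genes. At an unadjusted p under 0.05, 7 of them lay higher, against 6.89% of all genes, and DESeq2 called 4, against 2.25%. Ccl24, an eosinophil attractant, was at 8.96 to 275 CPM (median 47.1) in macrophage-rich rats and at 3.67 to 32.8 CPM (median 4.59) in macrophage-poor rats, a log2 fold change of 3.46 ± 0.75 with an edgeR adjusted p of 0.108. Ccl2, which draws monocytes through Ccr2, was at 113 to 11308 CPM against 109.8 to 2665 CPM. Ccl17, a ligand of the T cell receptor Ccr4, was at 109.7 to 6394 CPM (median 374) against 104.2 to 425 CPM (median 203); its highest value was that of C2, and its log2 fold change of 2.30 ± 0.73 was -0.74 in batches 2 and 3 alone.

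MHC class II genes lay higher by less. Of 13 tested, 12 had a fold change above 0, 8 were higher and 1 lower at an unadjusted p under 0.05, and the median was 1.14. The shares over all genes were 47.4% above 0, and 6.89% higher and 7.15% lower at an unadjusted p under 0.05. Among the 13 genes, RT1-DMa and RT1-DMb, whose products form the peptide-loading chaperone of class II, were found almost only in batch 3. With leukocyte columns pooled by batch, drug-treated ones included, they were at 68.5 and 41.4 CPM there. The pooled levels of batches 1 and 2 were at most 0.477 CPM, while single rats C2 and C9 of batch 1 had RT1-DMa at 3.97 and 1.72 CPM. Without them 10 of 11 lay above 0, 6 were higher and 1 lower at an unadjusted p under 0.05, and the median was 1.06. Cd74, the invariant chain, was at 10093 to 65740.3 CPM (median 30584) in macrophage-rich rats and at 7800.4 to 33659 CPM (median 14823) in macrophage-poor rats, and C9, the lowest macrophage-rich rat, lay inside the macrophage-poor range. RT1-Db1, a beta chain of the rat class II complex, had a log2 fold change of 1.27 ± 0.43 and RT1-Da, an alpha chain, of 1.44 ± 0.43, and RT1 genes too have close paralogs. The gene that lay lower was Cd80, a ligand of Cd28, at 13.9 to 41.5 CPM against 21 to 205 CPM, a log2 fold change of -1.24 ± 0.53. Dendritic cell genes had a median of 0.58 over 10 genes, which was -0.15 in C rats alone. Ccr7, the receptor that takes dendritic cells and T cells to lymph nodes, was at 28.2 to 647 CPM (median 81.5) against 21.3 to 1396 CPM (median 588).

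T cell transcripts lay lower in the macrophage-rich rats. Of 17 T cell genes, 15 had a fold change below 0, against 52.6% of all genes tested. Of these, 10 had an unadjusted p under 0.05, against 7.15% of all genes that lay lower. The list's median was -0.74, and DESeq2 called 1 lower, against 1.5% of all genes. Cd3e, a CD3 chain of the T cell receptor, was at 203 to 708 CPM (median 537) in macrophage-rich rats and at 531 to 1001 CPM (median 802) in macrophage-poor rats, a log2 fold change of -0.75 ± 0.30. Lck, the kinase that starts T cell receptor signalling, was at 232 to 888 CPM against 400.4 to 2041 CPM. Cd28, the costimulatory receptor, was at 17.9 to 198 CPM (median 86.5) against 107.4 to 893 CPM (median 306), a log2 fold change of -1.84 ± 0.64. Cd4, which rat macrophages are known to carry as well as T cells, was at 116 to 396 CPM against 63.3 to 304 CPM and was 1 of the 2 genes above 0. The classes overlapped for each of these 4 genes.

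Regulatory T cell and checkpoint genes had 12 of 12 fold changes below 0, against 52.6% of all genes, and a median of -0.71. At an unadjusted p under 0.05, 4 lay lower, against 7.15% of all genes. Foxp3, the factor that defines regulatory T cells, was at 26.3 to 101.8 CPM (median 63.2) in macrophage-rich rats and at 43.8 to 222 CPM (median 120.0) in macrophage-poor rats, a log2 fold change of -1.31 ± 0.44. Icos, a costimulatory receptor, was at 98.2 to 586 CPM against 284 to 1282 CPM. Cytotoxic and NK genes had 9 of 13 fold changes below 0, against 52.6% of all genes, and a median of -0.73. Ifng, interferon gamma, differed by -1.39 ± 0.44 on the log2 scale and Tbx21, which encodes its regulator T-bet, by -1.36 ± 0.41. DESeq2 called both lower, against 1.5% of all genes, and both were picked after their values were seen. The members with the highest average were Nkg7 and the granzyme gene Gzmm. In batches 1, 2 and 3 the mean difference in log2 CPM was 0.39, -0.91 and 0.67 for Nkg7. It was 0.78, -0.07 and 0.86 for Gzmm, and -0.37, -0.46 and 0.42 for the whole cytotoxic list. Prdm1, which encodes Blimp-1, was at 21.7 to 156 CPM against 88.5 to 507 CPM. Smad7, the inhibitory SMAD, was at 29.5 to 149.9 CPM (median 106.9) against 101.1 to 346 CPM (median 179.8), a log2 fold change of -1.20 ± 0.34, and Tgfbi, a matrix protein named for its induction by TGF-beta, differed the other way by 1.84 ± 0.50, while the TGF-beta list as a whole had a median of 0.06.

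**Figure D3:**
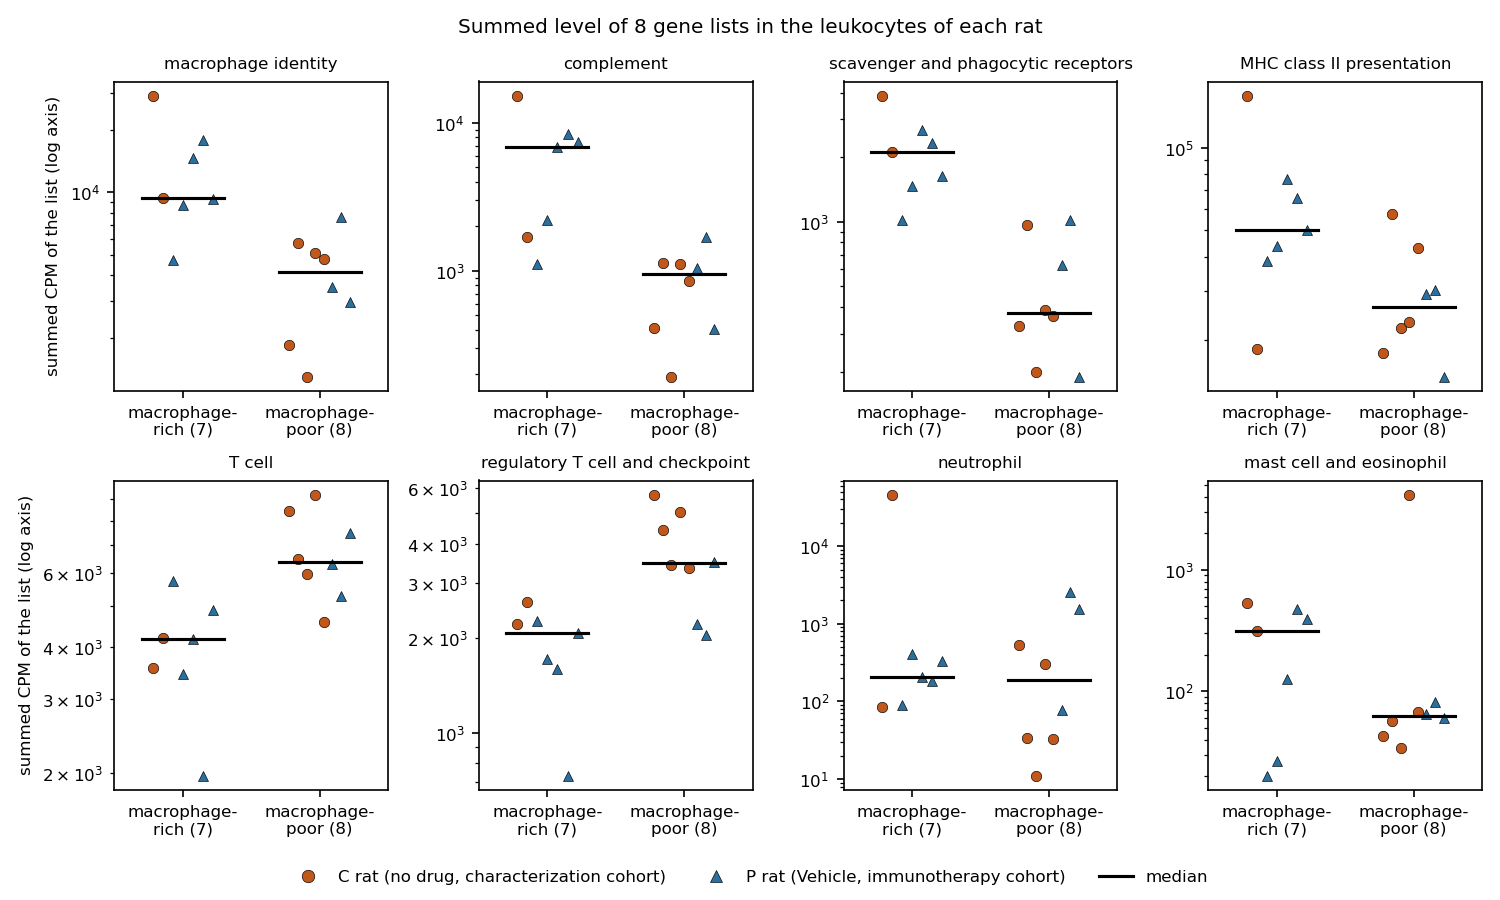
Summed CPM of 8 gene lists, on log axes, in the leukocytes of each rat (7 macrophage-rich on the left, 8 macrophage-poor on the right; circles C rats, triangles P rats, bars medians). One macrophage-rich rat, C9, is at 46268 CPM for the neutrophil list, and 1 macrophage-poor rat, C3, at 4169 CPM for the mast cell list.

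Genes of other cell types were in several lists high in a single rat. Neutrophil genes were at 46268 CPM in C9 and at 84.1 to 406 CPM in the other macrophage-rich rats, against 10.9 to 2553 CPM in macrophage-poor rats, and the list's median of 1.95 was -1.50 without C9. Type I interferon genes were at 4942 CPM in C9 and at 514 to 1351 CPM in the other macrophage-rich rats, against 618 to 1121 CPM in macrophage-poor rats, and their median of 0.24 was -0.27 without C9. Mast cell and eosinophil genes were at 20.1 to 529.9 CPM against 34.1 to 4169 CPM, the highest being C3. B cell genes were low in both classes, at 52.5 to 101.6 CPM against 45.5 to 921 CPM. Luminal epithelial genes summed to 96.0 to 649.8 CPM against 79.8 to 998 CPM, fibroblast and matrix genes to 33.1 to 2022 CPM against 15.8 to 1149 CPM. Of 10 fibroblast and matrix genes tested, 9 had a fold change above 0, against 47.4% of all genes, and 1 lay higher at an unadjusted p under 0.05, against 6.89%. Their median of 1.41 stayed above 0 without each single rat. Endothelial genes summed to 42.3 to 154 CPM against 54.1 to 222 CPM. Dissociation stress genes summed to 12073 to 31433 CPM against 13127 to 41414 CPM. Their part in the differences above was not tested.

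Within each batch the macrophage identity, complement, scavenger and lysosome lists lay higher in macrophage-rich rats, while the effector list was at 2.17, -0.56 and 0.60 in batches 1, 2 and 3. The mean difference in log2 CPM of the complement list was 2.56 in batch 1 (2 macrophage-rich and 5 macrophage-poor rats), 2.55 in batch 2 (2 and 2) and 1.37 in batch 3 (5 and 1). That of the T cell list was -0.90, -1.85 and -0.54. Macrophage-rich rats P6 and P8 had tumours in batches 2 and 3 and count in both, so these batches are not separate sets of rats. The neutrophil list was at 3.42 in batch 1, which holds C9, and at -1.86 and 1.12 in the others. Of the 26 lists with a median, 12 kept its sign in all 34 other settings, among them the macrophage identity, complement, scavenger, lysosome, chemokine, MHC class II, T cell, cytotoxic and regulatory T cell lists.

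Whether the class difference itself depended on the cohort was tested with an interaction term, which called 0 genes higher and 1 lower (0.00935%). Isg15, a ubiquitin-like protein induced by type I interferon, was at 42.9 to 91.8 CPM in the 5 macrophage-rich P rats and at 466.5 CPM in C2 and 955 CPM in C9, against 57.8 to 173 CPM in macrophage-poor rats. The class effect in P rats minus that in C rats was -3.77 ± 0.550 on the log2 scale (edgeR adjusted p 0.0434), and its adjusted p lay between 0.00553 and 0.158 when single rats were left out.

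Since a threshold divides rats that lie close together, log2 Csf1r CPM was also used as a number. In rats without drug 106 genes (0.992%) rose and 12 (0.112%) fell with it at an edgeR adjusted p under 0.05. That count rests on single rats too, being 18 and 0 without P6, 28 and 0 without C10 and 28 and 2 without C2. Drug-treated rats, whose leukocytes played no part in setting the classes, allowed the same fit in other animals: 16 rats given the TGFBR1 inhibitor LY2157299 (LY), an anti-PD-L1 antibody (PDL1) or both, with treatment as covariate. These rats gave 3 macrophage-rich and 14 macrophage-poor sums. Rat P24 had columns of both classes and entered the fit as a separate library of each. In this fit 99 genes rose (0.806%) and 4 fell (0.0326%), and without P24 72 rose and 13 fell. Of the 106 genes, 105 were tested in treated rats and 104 of these had a slope above 0 (99%), against 52.7% of all 12281 genes tested, with median slopes of 0.50 and 0.01 log2 CPM per log2 Csf1r. Shared between the sets were 35 genes, 33% of the genes that rose without drug and 35.4% of those that rose with drug. All 12 genes that fell without drug had a slope below 0 in treated rats. The treated count rests on rat P28, which had the lowest Csf1r at 4.75 CPM: without it 3 genes rose and 0 fell.

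Over all genes, 5096 of 10690 slopes lay above 0 without drug and 6469 of 12281 with drug, and 0.992% and 0.806% rose past the test. Scavenger receptor genes had slopes above 0 in 14 of 14 cases in both sets, and 6 passed the test without drug and 7 with drug. Complement genes had 11 of 12 slopes above 0 without drug, 4 of them past the test, and 12 of 12 with drug, 3 of them past it. Cd163 had a slope of 1.21 ± 0.295 without drug (edgeR adjusted p 0.0567) and rose in treated rats with a slope of 1.86 ± 0.281 (edgeR adjusted p 0.00375). Mrc1 rose in both, with slopes of 1.04 ± 0.227 and 1.17 ± 0.198 (edgeR adjusted p 0.0357 and 0.00833). Spi1 rose in both as well, with slopes of 0.59 ± 0.0937 and 0.60 ± 0.123 (edgeR adjusted p 0.0110 and 0.0259). Spp1 had a slope of 0.02 ± 0.260 without drug and rose in treated rats at 1.11 ± 0.132 (edgeR adjusted p 0.000802); the difference between the sets was not tested. T cell genes had 15 of 17 slopes below 0 in each set, with medians of -0.23 and -0.10, and none passed the test at an adjusted p, while 9 without drug and 1 with drug had a slope below 0 at an unadjusted p under 0.05, against 5.96% and 3.84% of all genes.

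**Figure D4:**
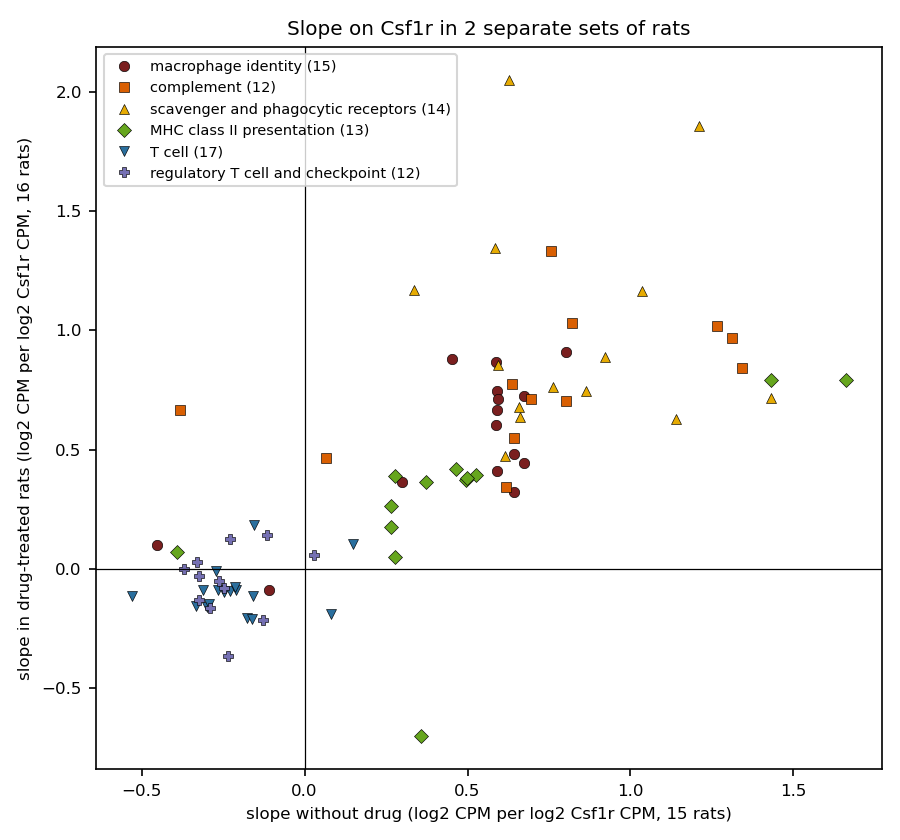
Slope of each gene of 6 lists on log2 Csf1r CPM without drug (x axis, 15 rats) and in drug-treated rats (y axis, 16 rats), in log2 CPM per log2 Csf1r CPM. Treated rat P24 entered as a separate library of each class. All 14 scavenger receptor genes lie above 0 on both axes, and 15 of 17 T cell genes lie below 0 on each. Over all genes, 5096 of 10690 slopes without drug and 6469 of 12281 with drug were above 0.

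The same threshold of 150 CPM left 3 macrophage-rich and 14 macrophage-poor sums of treated rats, 1 rat giving both, and 0 genes passed the edgeR test there, while DESeq2 called 0 higher and 1 lower. At an unadjusted p under 0.05, 81 of 12281 genes lay higher (0.66%) and 80 lower (0.651%). Macrophage-rich treated columns reached 153 to 211 CPM of Csf1r, so the contrast was narrower than without drug. Scavenger receptors had 14 of 14 fold changes above 0, against 46.6% of all genes (53.4% lay below 0), with a median of 1.41, and complement genes 12 of 12 with a median of 1.40. For 7 genes every macrophage-rich sum exceeded every macrophage-poor sum (0.057%), and for 3 genes every macrophage-rich sum lay lower (0.0244%).

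Tumours of 1 rat could differ as much as rats did. In P5 the Csf1r level of 321, 409 and 937 CPM in tumours 1, 2 and 3 went with C1qa at 1235, 1431 and 2443 CPM and with Cd3e at 1049, 600.5 and 21.7 CPM. In P6, tumour 2 had Cd3e at 25.8 CPM and tumour 1 at 515 CPM, with C1qa at 2566 and 1524 CPM. P8 had Cd3e at 848 and 629 CPM and C1qa at 1270 and 2936 CPM in tumours 1 and 2. Tumour 1 of P6 and of P8 was in batch 3 and tumour 2 in batch 2, so tumour and batch cannot be told apart there. Macrophage-poor rat C10 had C1qa at 11.2, 112 and 38.4 CPM and Cd3e at 1257, 488 and 1145 CPM in tumours 2, 4 and 6. Each of these is 1 library, with no replicate of the tumour.

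**Figure D5:**
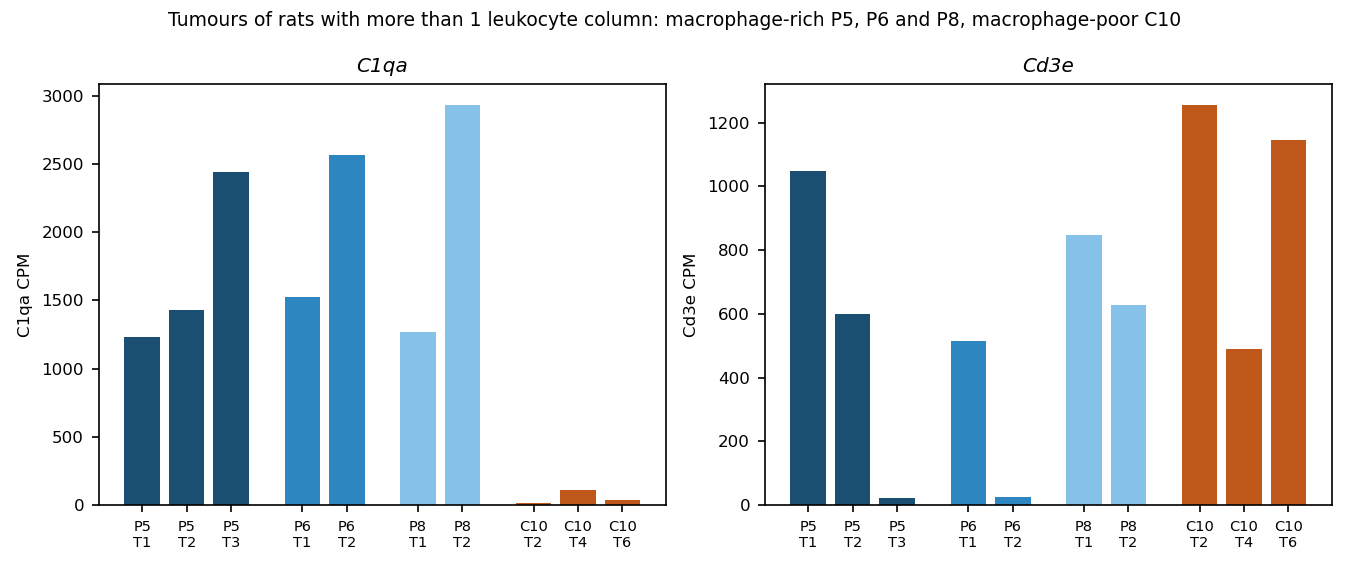
C1qa and Cd3e in CPM (bars, linear axes from 0) in each leukocyte column of the 4 rats with more than 1, macrophage-rich P5, P6 and P8 on the left and macrophage-poor C10 on the right. Cd3e is at 21.7 CPM in tumour 3 of P5 and at 25.8 CPM in tumour 2 of P6, the 2 lowest Cd3e bars.

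Non-leukocyte columns of the same rats are libraries that the threshold did not use, and 5 macrophage-rich and 8 macrophage-poor rats had them. Of 12727 genes 0 passed the edgeR test, the smallest adjusted p being 0.939, and 283 lay higher (2.22%) and 341 lower (2.68%) at an unadjusted p under 0.05. DESeq2 called 1 higher and 20 lower. The classes did not overlap for C1q here: C1qc was at 42.3 to 131 CPM in macrophage-rich rats and at 0 to 22.8 CPM in macrophage-poor rats, C1qa at 34.5 to 106 CPM against 0 to 24.4 CPM, and C1qb at 36.9 to 122 CPM against 0 to 29.6 CPM. These were 3 of 15 genes for which every macrophage-rich rat exceeded every macrophage-poor rat (0.118%), and for 21 genes every macrophage-rich rat lay lower (0.165%). Ptprc in these columns was at 7.71 to 41.8 CPM against 0.0698 to 49.7 CPM. Milk protein genes lay lower, with 5 of 6 fold changes below 0, against 44.3% of all genes, and 3 at an unadjusted p under 0.05; Csn3, kappa-casein, was at 1061 to 1902 CPM against 207 to 22072 CPM. Of 12 luminal genes 10 lay below 0 and 7 had an unadjusted p under 0.05, among them Krt8, a keratin of luminal cells, at 1390.4 to 2216 CPM against 1307 to 9395 CPM. Fibroblast and matrix genes had 11 of 11 fold changes above 0, against 55.7% of all genes, none of them at an unadjusted p under 0.05, with a median of 2.29, and Col1a1, a chain of collagen I, was at 911 to 35546 CPM against 3.19 to 28832 CPM. Epcam, an epithelial gene, was at 577 to 1380 CPM against 652 to 3912 CPM in these sums. Column names give no sorted fraction and rats gave different numbers of columns, so the sums can mix fractions unequally between the classes. The part of the sorted fraction and of the epithelial to stromal makeup of these columns in the differences was not tested.

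No measurement of the sample table passed an exact test between the classes. These tests pooled C and P rats without a cohort term. The class means of tumour size differed by 6.77 in C rats alone and by -0.233 in P rats alone (macrophage-rich minus macrophage-poor). The CD8 fraction was 0.0544 ± 0.0228 in 4 macrophage-rich rats and 0.118 ± 0.138 in 3 macrophage-poor rats (mean ± SD; exact two-sided permutation test, p = 0.571). Tumour size was 23.5 ± 8.41 in 7 rats and 15.6 ± 15.4 in 8 rats (exact p = 0.249), the time since NMU was 105 ± 25.1 in 6 rats and 116 ± 50.1 in 7 rats (exact p = 0.661), and the growth rate was 7.93 ± 3.55 in 5 rats and 6.17 ± 5.86 in 3 rats (exact p = 0.607). The units of the last 3 are not stated. All 4 adjusted p were 0.661, and the smallest p that 4 against 3 rats can give is 0.0286.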

How the data were processed

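RNA of sorted tumour fractions was amplified with a SMARTer low-input kit from less than 10 ng, per the labels' protocols, with no molecular identifiers. The deposited table holds raw counts per gene symbol; per the submitters' processing notes STAR and FastQC were used with build rn6. Overlapping and antisense genes cannot be told apart, since the sources used here give no counting tool, annotation or strand. The CD8 fraction, from 0 to 1, and the other tumour measurements are the authors' values in their deposited sample table. One column (1) without a rat name was not used.

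For single columns, pooled batches and the Csf1r level of the slope fits, CPM is the count per 1000000 of total counts. For genes and lists per rat, CPM is the count per 1000000 of the summed library's size times its TMM factor. That library size was taken over the genes past the filter. Columns of 1 rat and class were summed and fitted in R 4.3.3 with edgeR 4.0.16 (TMM, filterByExpr, robust quasi-likelihood test), with Csf1r left out before the Benjamini-Hochberg adjustment at 0.05; SE is the log2 fold change over the root of F. DESeq2 1.42.0, limma 3.58.1 voom, other thresholds, filters and scalings, single cohorts and leaving out each rat were alternatives, and those on C2 and C3, batches, the slope and the interaction were chosen after seeing the data. The edgeR test between the classes was tried on simulated data, for leukocytes without drug, treated leukocytes and non-leukocyte columns. DESeq2, voom, the slope on Csf1r and the interaction were not tried in that way. Members and gene lists were chosen with earlier results of these data known. Genes were named as the 10 of smallest p (when under 10 were called) and, of each list, the 2 members with the highest average; Csf2ra, Cd68, Spi1, Fcgr3a, Mrc1, Cd163, Trem2, Ctss, Igf1, Spp1, Ccl24, RT1-Da, Cd80, C1qb, Cd28, Cd4, Foxp3, Ifng, Tbx21, Idi1 and, in non-leukocyte columns, C1qa and C1qb were added after their values were seen. Rats apart from their class were looked for on log2(CPM + 1).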

Additional observations from a re-analysis of the deposited data

Results flagged for a closer look

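Among 164 sets of values of 1 gene, gene list or measurement in 1 class, 6 had a rat whose gap to its nearest neighbour was large for the class's range (Dixon's test at 95%), a rate at or below the 1 in 20 that chance gives. In macrophage-rich rats, C9 stood apart for the neutrophil list at 46268 CPM (others 84.1 to 406) and for the type I interferon list at 4942 CPM (others 514 to 1351). C2 was lowest for the inhibitory SMAD gene Smad7 at 29.5 CPM (others 91.4 to 149.9), and P14 was lowest for Idi1, an enzyme of isoprenoid synthesis, at 29.5 CPM (others 51.2 to 74.9). In macrophage-poor rats, C3 was highest for Tnfrsf4, the OX40 receptor of activated T cells, at 1490.0 CPM (others 449.8 to 753), and for the mast cell and eosinophil list at 4169 CPM (others 34.1 to 81.5).

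Isg15 was the 1 gene whose class effect differed between cohorts, by -3.77 on the log2 scale (P rats minus C rats), with an edgeR adjusted p of 0.0434. Its 2 high values were those of macrophage-rich C9 and C2, and the split by cohort is also the split between batch 1 and batches 2 and 3.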

How the results depend on the processing

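Calls between the classes depended on the method and on single rats. Of 53 of the named genes followed over 33 alternatives, 52 kept their direction, the exception being Ccl17 at -0.74 in batches 2 and 3. These 53 are a part of the named genes, so the share does not describe all of them. By batch, the mean difference in log2 CPM of Spp1 was 1.54, -2.24 and -1.06 in batches 1, 2 and 3. That of Isg15 was 2.79, -1.66 and -0.66. Of 26 list medians 12 kept their sign, and the neutrophil, interferon, proliferation, effector and B cell lists were among the rest. The count of 0 higher and 0 lower genes became 241 and 160 with DESeq2, 82 and 71 with DESeq2 without C2 and C3, 4 and 1 with the Csf1r threshold at 100 CPM, 43 higher at 200 CPM, 106 and 12 with log2 Csf1r as a number, 35 and 2 with every column as a library, and 48 and 1 with batch as covariate, where P6 and P8 count in 2 batches. Leaving out 1 rat gave 0 to 78 higher and 0 to 36 lower, the most without P4 and 2 higher without P39. In treated rats, 0 became 12 higher at 100 CPM, 99 and 4 with log2 Csf1r as a number, and 1 lower with DESeq2. In non-leukocyte columns DESeq2 called 1 higher and 20 lower. The 106 and 12 genes that follow Csf1r without drug became 349 and 79 with DESeq2, 43 and 10 without C2 and C3, and 18 to 147 higher and 0 to 29 lower without 1 rat, fewest without P6 and most without P4. The 99 and 4 in treated rats became 406 and 39 with DESeq2 and 3 to 111 higher and 0 to 13 lower without 1 rat, fewest without P28. The interaction count became 24 higher and 30 lower with DESeq2, and 0 to 707 higher and 0 to 59 lower without 1 rat, most without C9. Tumour size differed by -0.233 in P rats alone and time since NMU by 1.00 in C rats alone, against the direction over both cohorts. The cause of these changes was not tested. No paired analysis was possible because without drug no rat gave leukocytes of both classes and with drug only 1 did. Columns tied by name to a CD45 sample left 1 macrophage-poor rat, so that alternative was not run.

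Both classes rest on 7 and 8 rats and on 1 gene's level. The macrophage-rich C rats are only C2, which stands apart from the others, and C9, which carries the neutrophil transcripts.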

Other observations

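Among columns without drug under the Ptprc threshold of 300 CPM, tumour 1 of rat C5 had the highest Ptprc, at 165 CPM, with Csf1r at 139.6, Cd3e at 1099.9, C1qa at 239.6, Lyz2 at 2829 and Epcam at 19 CPM over 8586884 counts.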
